A study of Mus musculus with 8 samples.

Results

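The genes described are 9 members of the WNK pathway of ion and volume control, among 39179 gene identifiers counted in mouse spinal cord astrocytes: the kinases Wnk1, Wnk2, Wnk3 and Wnk4, the kinases they act on, Stk39 and Oxsr1, and the cotransporters Slc12a2, Slc12a4 and Slc12a7. They were chosen by name with the control and cKO expression values already known, Wnk2 having stood out. For that reason their differences between the groups are a description and not a test of the family. All 9 were found, and all 9 passed the filter on low counts.

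The cells were sorted by flow for the reporter Aldh1l1-GFP, which every animal of both groups carried, from spinal cords of mixed Swiss-Webster mice at postnatal days 12 to 14. The 4 control libraries came from cre-negative animals, labelled wild-type (S1, S2, S6 and S7). The other 4 (cKO; S3, S4, S5 and S8) came from animals with both alleles of Kir4.1 floxed and Aldh1l1-cre. The design text calls the 4 libraries of each group biological replicates. Per-library values are given in the order S1, S2, S6, S7 for controls and S3, S4, S5, S8 for cKO. Whether controls carried floxed alleles, how many animals entered a library and the sex of the animals are not given in the sources used here. Kir4.1, encoded by Kcnj10, is the inward rectifier potassium channel of astrocytes, and the study's title links it to fast motor neurons and peak strength. The reporter and the deletion both rest on regulatory elements of Aldh1l1, a gene of astrocytes. How far the sorted cells were those in which cre was driven was not measured here.

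WNK kinases are protein kinases that lack a lysine at the usual place in the catalytic site and are inhibited by chloride bound there. When chloride is low or the cell shrinks, they phosphorylate SPAK (encoded by Stk39) and OSR1 (encoded by Oxsr1). These kinases in turn activate the sodium-potassium-chloride cotransporter NKCC1 (Slc12a2), which loads cells with chloride and potassium, and inhibit the potassium-chloride cotransporters KCC1 (Slc12a4) and KCC4 (Slc12a7), which carry both ions out. In astrocytes NKCC1 is known for its part in potassium uptake and swelling.

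Gene reads numbered 13892736 to 25065686 per library. Kcnj10 was at 1181 to 2306 CPM (counts scaled to library size) in controls and at 27.2 to 37.6 CPM in cKO, so the targeted gene contradicted no library's label, and control S1 was the lowest control. Summed CPM of 9 astrocyte markers were 15728 to 22943 in controls and 18307 to 22787 in cKO. Of the 9, 2 rose in cKO in edgeR's test: Aldh1l1, the gene behind the reporter and the cre, was at 131 to 151 CPM in controls and 244 to 350 in cKO (adjusted p 0.0179), and the water channel gene Aqp4 at 1588 to 2454 and 3373 to 5268 CPM (adjusted p 0.0243). Markers of other cell types were present too: 10 of 10 oligodendrocyte genes had a lower mean in cKO, with sums of 1480 to 2950 CPM in controls and 983 to 2413 in cKO, and so did 5 of 5 matched genes of oligodendrocyte precursors (OPC; 282 to 937 against 182 to 424), 6 of 7 endothelial genes (38.0 to 58.2 against 19.4 to 48.4), 7 of 10 neuronal genes (59.0 to 89.2 against 34.7 to 78.4) and 4 of 4 fibroblast genes (109 to 477 against 75.7 to 132). Sums of mural, microglial, ependymal and Schwann cell markers overlapped too. No marker found in these 10 lists was at 0 in all libraries. At an adjusted p under 0.05 in edgeR's test, 0 markers of cells other than astrocytes were called, against 0.318% of all 14757 genes tested. With so low a share over all genes, a count of 0 in short lists tells little. In bulk samples, fewer cells of a type and less RNA per cell cannot be told apart.

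The sequences upstream of Wnk2, the member that fell, and of Wnk1, the kinase gene with the most reads, are shown as the 250 bases before the RefSeq transcription start (GRCm38.p6), at chr13:49148329-49148578 and chr6:120038656-120038905, both on the minus strand. Capitals mark any match on either strand to GGGCGG (the GC box), CCAAT (the CCAAT box), TATAAA (the TATA box) or CACGTG (the E-box).
Wnk2: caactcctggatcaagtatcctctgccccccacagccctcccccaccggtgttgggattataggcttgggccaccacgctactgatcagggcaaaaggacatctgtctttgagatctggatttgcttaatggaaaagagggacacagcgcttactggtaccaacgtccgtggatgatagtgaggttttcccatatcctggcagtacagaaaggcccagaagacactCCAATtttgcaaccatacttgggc
Wnk1: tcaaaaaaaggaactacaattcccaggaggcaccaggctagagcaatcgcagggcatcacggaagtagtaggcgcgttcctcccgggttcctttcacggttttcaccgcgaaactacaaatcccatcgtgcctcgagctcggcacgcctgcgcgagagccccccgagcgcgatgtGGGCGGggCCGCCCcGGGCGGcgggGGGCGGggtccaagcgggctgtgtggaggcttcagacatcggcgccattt
The Wnk1 window held 4 GC boxes and 26 CG dinucleotides, and the Wnk2 window held 1 CCAAT, 0 GC boxes and 5 CG dinucleotides. Over all 32841 windows of this length, 32.7% held a GC box, 33.9% CCAAT, 12.4% TATAAA and 6.02% CACGTG, and the median number of CG dinucleotides was 6. The GENCODE start of Wnk2 lies 314 bases further into the gene than the RefSeq start, while those of Wnk1 differ by 17 bases, so the Wnk2 window depends on the annotation more.

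In control astrocytes the cotransporter KCC1 and the kinase Wnk1 were the most abundant of the 9 genes, and Wnk4 and KCC4 were near the floor. Levels of different genes were compared as CPM per kilobase of annotated exon. Slc12a4 was at 17.1 ± 1.08 and Wnk1 at 9.89 ± 0.705 (SD, n = 4 per group). Oxsr1 (5.02 ± 2.03), Stk39 (4.54 ± 1.80), Slc12a2 (4.15 ± 1.05) and Wnk2 (3.60 ± 0.958; SD, n = 4 per gene) followed close to one another. Among these 4, each neighbouring pair had overlapping libraries, and Oxsr1 exceeded Stk39 in 1 library of 4 only, although its mean was higher. Wnk3 was at 1.65 ± 0.646, below Wnk2 in 4 of 4 libraries, Wnk4 at 0.239 ± 0.152 and Slc12a7 at 0.133 ± 0.144 (SD, n = 4 per group). The libraries of Wnk4 and Slc12a7 overlapped, while those of Slc12a4, Wnk1 and Oxsr1 did not.

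**Figure D1:**
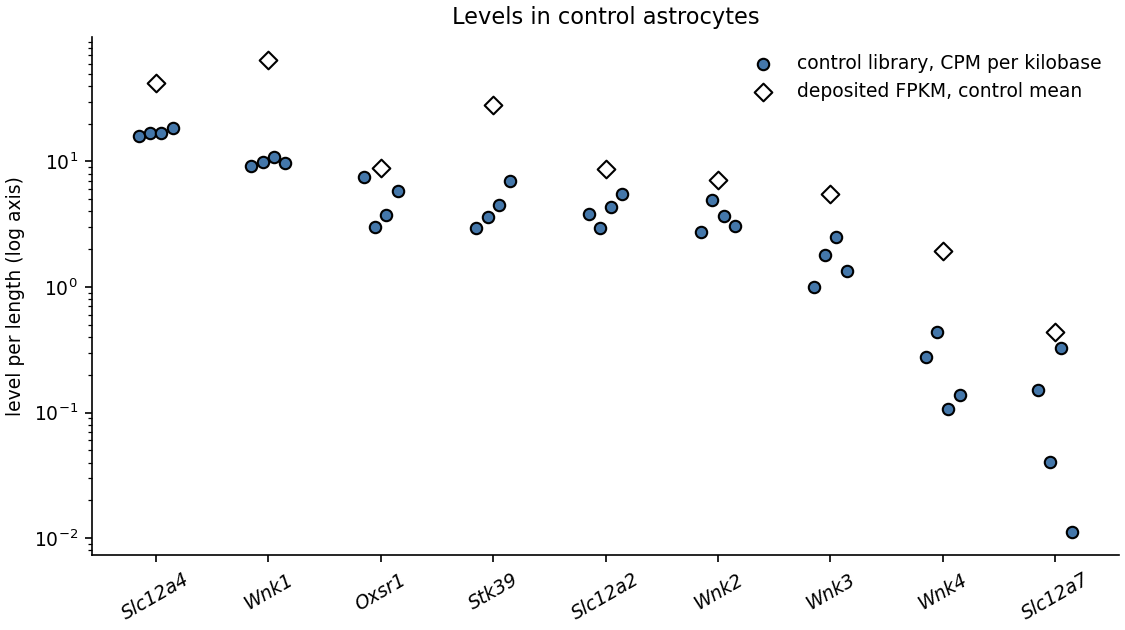
Level per length (log axis) of the 9 genes in the 4 control libraries (circles, CPM per kilobase) and the control mean of the deposited FPKM (diamonds). Slc12a4 and Wnk1 lead on both scales, in opposite order, and Wnk4 and Slc12a7 are lowest on both.

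The order at the top depends on the scale. The deposited FPKM, which are also scaled to length, put Wnk1 first (control mean 63.9), then Slc12a4 (42.0), Stk39 (28.4) and Oxsr1 (8.94). FPKM were higher than CPM per kilobase for all 9 genes, from 1.78 times for Oxsr1 to 6.46 times for Wnk1 and 8.12 times for Wnk4, so genes can be ranked within 1 scale only. The lower part of the order, Slc12a2, Wnk2, Wnk3, Wnk4 and Slc12a7, was the same on both scales.

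Members also differed in how evenly they were expressed among control libraries. Slc12a4 and Wnk1 varied least, with coefficients of variation of 6.34% and 7.13% across the 4 control libraries. Of the 2659 and 735 tested genes within 2-fold of their CPM, 3.65% and 8.44% varied less. Oxsr1 (40.4%), Stk39 (39.6%) and Wnk3 (39.0%) varied more than most genes of like level, whose medians were 24.4%, 25.9% and 28.0%. Slc12a7 varied most, by 109%.

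On GRCm38, with GENCODE M21 coordinates, Wnk1 lies on the minus strand of chromosome 6 (119923969 to 120038672), Wnk2 on the minus strand of chromosome 13 (49036303 to 49148014), Wnk3 on the plus strand of chromosome X (151198078 to 151320152) and Wnk4 on the plus strand of chromosome 11 (101260567 to 101277409). Stk39 is on chromosome 2 (68210445 to 68472268, minus), Oxsr1 on chromosome 9 (119238432 to 119322427, minus), Slc12a2 on chromosome 18 (57878678 to 57946821, plus), Slc12a4 on chromosome 8 (105943590 to 105966097, minus) and Slc12a7 on chromosome 13 (73733094 to 73816754, plus). No word of 50 bases in the annotated transcripts of one member occurred in those of another, so reads of that length or longer separate the 4 WNK genes. Exons of Wnk3, Wnk4 and Slc12a4 overlap an antisense gene (A230072E10Rik, Gm11615 and Gm16156), with 3.59%, 4.96% and 5.19% of their words shared. Strand use in the counting is not given in the sources used here, so reads of these 3 are uncertain. The shares are of words and not of reads, and how many reads are affected was not measured.

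Wnk2 was the member that fell in cKO astrocytes. Control libraries had 23.3, 41.6, 31.4 and 25.8 CPM, and cKO libraries had 7.10, 5.40, 6.61 and 5.01 CPM. Every cKO library was below every control library, and the cKO libraries lay close together. Mean Wnk2 was 30.5 ± 8.13 CPM among controls against 6.03 ± 0.988 among cKO libraries (SD, n = 4 per group), so that 19.8% of the control level remained. These values rest on 367, 571, 572 and 544 reads in controls and 139, 119, 116 and 117 in cKO. In edgeR's quasi-likelihood fit this was a log2 fold change of −2.34 (standard error 0.27, 95% interval −2.92 to −1.75).

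Of the 9 members, 1 had an adjusted p under 0.05 in this fit, against 0.318% of all 14757 genes tested (0.115% lower and 0.203% higher in cKO). Of the 9, 1 had groups that did not overlap, against 6.34% of all genes tested, of which 2.94% were lower in cKO. Because the choice of the members used this comparison, nothing is read from these shares. The median log2 fold change was −0.16 over the members and −0.017 over all genes tested. In the authors' deposited table, Wnk2 had group means of 562 and 111 scaled counts. Its log2 fold change there, taken to be shrunken, was −2.08 (standard error 0.23).

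The call of Wnk2 held without each library in turn, with log2 fold changes between −2.45 and −2.15. These include −2.45 without control S1, the library with the lowest Kcnj10 among controls, and −2.32 without control S6. With the deposited FPKM, where libraries were at 4.67 to 8.80 in controls and 0.995 to 2.47 in cKO, the direction was the same and the call was lost.

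**Figure D2:**
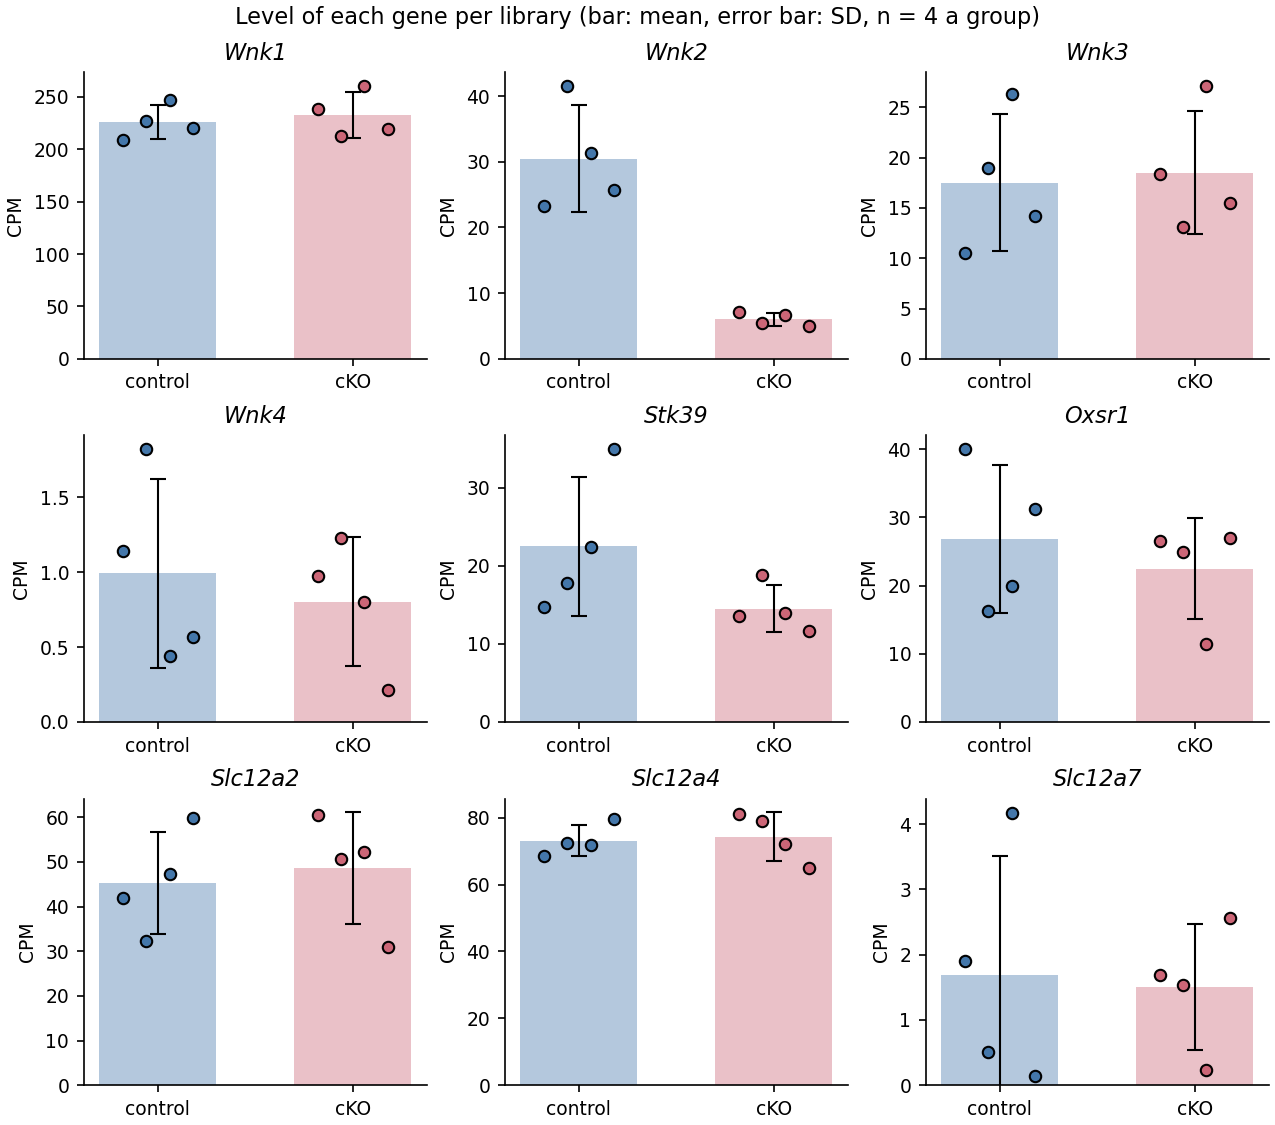
CPM of each gene in the 4 control and 4 cKO libraries (points), with the group mean (bar) and SD (error bar, which for Slc12a7 in controls is cut at 0). For Wnk2, controls lie at 23.3 to 41.6 CPM and cKO at 5.01 to 7.10, and for the other 8 genes the groups overlap.

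Markers of oligodendrocytes and OPC were lower in cKO on average, and their values stand beside those of Wnk2. Control S2, the library with the most Wnk2 (41.6 CPM), had the lowest oligodendrocyte sum of the controls, 1480 CPM, and the lowest OPC sum, 282 CPM. In cKO S5, with 6.61 CPM of Wnk2, the oligodendrocyte sum was 2413 CPM, above those of control S1, S2 and S6, while the OPC sum was 211 CPM, below every control. The oligodendrocyte genes Mog (24.6 to 46.0 CPM in controls, 6.46 to 20.5 in cKO) and Mal (33.1 to 86.5 and 3.34 to 32.7 CPM) were lower in every cKO library than in every control. The remaining oligodendrocyte genes overlapped. In the neuronal list, Gad2 was also lower throughout (4.66 to 27.0 and 2.31 to 4.33 CPM). So was Snap25 (21.9 to 40.0 and 13.2 to 21.0 CPM). Of the 10 neuronal genes, 3 (Gad1, Syt1 and Slc6a5) had a higher mean in cKO. The fibroblast gene Col1a2 was lower in every cKO library too (88.9 to 136 and 64.4 to 86.6 CPM). Of all genes tested, 2.94% were lower in this way. The genes named here were picked after their values were seen. The part of the oligodendrocyte, OPC and other marker lists in the difference of Wnk2 was not tested.

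The 5 genes whose log2 CPM followed that of Wnk2 most closely over the 8 libraries, out of 12234 with a mean of at least 1 CPM, were Kcnj10 itself (Pearson's r = 0.986), Piezo2 (0.976), Arglu1 (0.956), Snhg20 (0.952) and Egfl6 (0.949). Genotype divides these libraries, so genes whose fall in cKO is large beside their spread score high, and the values are a description. With each group's mean removed, r with Wnk2 was 0.725 for Kcnj10, 0.557 for Piezo2, 0.556 for Arglu1, 0.371 for Egfl6 and 0.328 for Snhg20. The 5 genes were picked by r over these same 8 libraries, which also holds the spread within groups. These values are therefore not free of that choice and are a description too. Control S2 was the highest control for both Wnk2 and Kcnj10 and control S1 the lowest for both, at 2306 and 1181 CPM of Kcnj10. Piezo2, a mechanically gated channel, was at 5.73 ± 1.54 CPM in controls and 0.527 ± 0.236 in cKO, and Egfl6, a secreted matrix protein, was at 51.0 ± 11.9 and 13.8 ± 3.39 (SD, n = 4 per group).

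**Figure D3:**
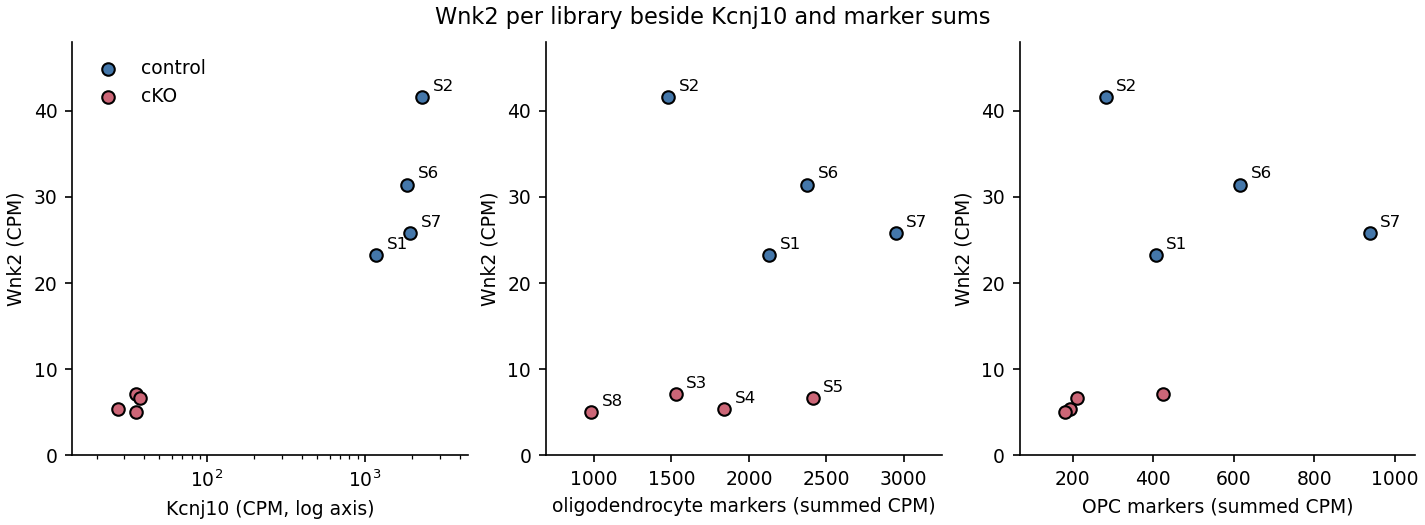
Wnk2 CPM in each library against Kcnj10 CPM (left, log axis), summed CPM of 10 oligodendrocyte markers (middle) and of 5 OPC markers (right), with controls in blue and cKO in red. The cKO libraries stay at 5.01 to 7.10 CPM of Wnk2 over oligodendrocyte sums of 983 to 2413 CPM and OPC sums of 182 to 424 CPM.

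For the other WNK genes the libraries of both groups overlapped, and how closely the means are known differed by gene. Wnk1, the broadly expressed member of the family, was at 209, 227, 247 and 220 CPM in controls against 239, 213, 260 and 219 CPM in cKO. The groups overlapped, and the 95% interval of its fold, from 0.834 to 1.27, was the narrowest of the family. Wnk3, a member known for acting on cotransporters in neurons, was at 10.5, 19.0, 26.4 and 14.2 CPM in controls against 18.4, 13.1, 27.1 and 15.5 CPM in cKO. Its interval ran from 0.649 to 1.72, and its libraries overlapped throughout. Wnk4, best known for its role in the kidney, had 8 to 25 reads per control library and 5 to 27 per cKO library. Its means were 0.992 ± 0.630 CPM in control and 0.802 ± 0.429 in cKO libraries (SD, n = 4 per group), and at that depth its interval, from 0.243 to 2.72, holds changes of over 2-fold either way.

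The make-up of the family differed between the groups. On the per-length scale, Wnk2 made up 20.8%, 28.7%, 21.6% and 21.4% of the summed WNK level of controls, and 6.31%, 5.55%, 5.22% and 5.05% of that of cKO. The mean share of Wnk1 was 64.8% ± 5.15 in controls and 79.6% ± 2.54 in cKO (SD, n = 4 per group). Its ranges were 58.2% to 69.5% in controls and 76.4% to 82.0% in cKO. Shares are parts of a common sum, so the higher share of Wnk1 is not separate from the lower share of Wnk2. The level of Wnk1 itself was 9.89 CPM per kilobase in controls and 10.2 in cKO. Wnk3 made up 10.5% ± 2.95 and 13.4% ± 2.71 and Wnk4 1.56% ± 0.921 and 1.52% ± 0.892 (SD, n = 4 per group). By CPM per kilobase, Wnk2 thus stood second in every control library, and Wnk3 stood second in every cKO library. The summed WNK level was 15.4 ± 2.02 CPM per kilobase in controls and 12.8 ± 1.61 in cKO (SD, n = 4 per group), with ranges that overlapped. The summed deposited FPKM ran the other way, with 78.6 in controls and 85.3 in cKO. By deposited FPKM the share of Wnk2 was 9.16% in controls and 1.92% in cKO, and that of Wnk1 was 81.5% and 90.5%. The highest control FPKM was 10.5 for Wnk3 and 8.80 for Wnk2, so on that scale Wnk2 was not second in every control column.

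**Figure D4:**
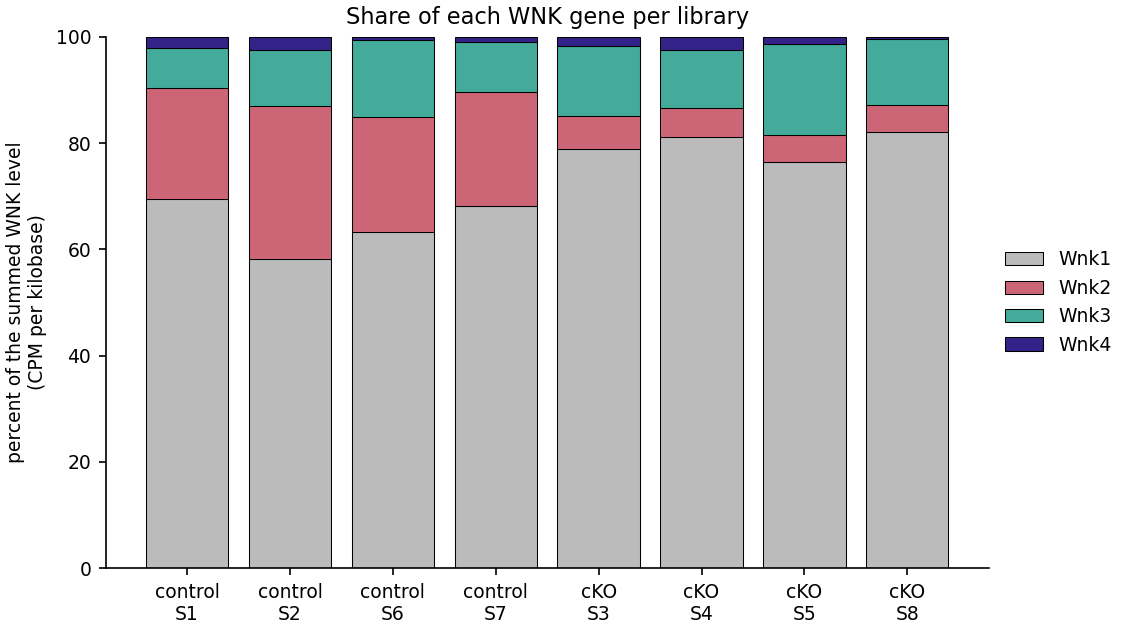
Share of each WNK gene in the summed WNK level (percent, from CPM per kilobase) in each library. Wnk2 takes 20.8% to 28.7% in controls and 5.05% to 6.31% in cKO, and Wnk1 takes most of the rest.

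The kinases downstream of WNK had lower means in cKO and did not pass the threshold. Stk39, which encodes SPAK, was at 14.7, 17.8, 22.5 and 35.0 CPM in controls against 13.6, 18.8, 13.9 and 11.7 CPM in cKO. In cKO, 3 of 4 libraries were below the lowest control, while cKO S4 was above control S1 and S2. On the log2 scale its difference was −0.64 (standard error 0.30), and the 95% interval of its fold reached from 0.412 to 1.005. Leaving out control S7, the highest control, gave −0.33, and leaving out each library in turn gave −0.79 to −0.33. Control S7 also had the highest oligodendrocyte and OPC sums of the 8 libraries, 2950 and 937 CPM. The next highest oligodendrocyte sum, 2413 CPM, was in cKO S5, where Stk39 was at 13.9 CPM and the OPC sum at 211 CPM. The part of those cells in the Stk39 level was not tested.

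Oxsr1, which encodes the close relative OSR1, was at 40.0, 16.2, 19.9 and 31.3 CPM in controls against 26.5, 24.9, 11.4 and 26.9 CPM in cKO. Its groups overlapped, and its interval ran from 0.507 to 1.38. Of the summed per-length level of both kinases, Stk39 took 48.1% ± 13.1 in controls and 42.3% ± 11.1 in cKO (SD, n = 4 per group). In control S1 Oxsr1 took 71.6%, and in the other 3 controls at most 45.7%. By deposited FPKM Stk39 took 74.9% of the sum in controls and 59.1% in cKO, so the larger of the 2 depends on the scale.

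For each of the 3 cotransporters the libraries of both groups overlapped. Slc12a2, the inward carrier NKCC1, was at 41.8, 32.4, 47.3 and 59.9 CPM in controls against 60.5, 50.8, 52.3 and 30.9 CPM in cKO. The groups overlapped throughout, with the lowest value of all in cKO S8, and the interval of its fold ran from 0.746 to 1.54. Slc12a4, the outward carrier KCC1, was at 68.7 to 79.7 CPM in controls and at 65.1 to 81.3 in cKO, and its interval ran from 0.810 to 1.28. The share of Slc12a2 in the summed per-length level of the 3 cotransporters was 19.2% ± 3.28 in controls and 20.0% ± 3.19 in cKO (SD, n = 4 per group). The balance between the inward carrier and KCC1 therefore differed by less than the spread between libraries.

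Slc12a7, which encodes KCC4, was the least abundant member and varied most. Control libraries held 30, 7, 76 and 3 of its reads, and cKO libraries 33, 34, 4 and 60. The highest and lowest control libraries differed 29.4-fold, and the interval of the group difference, from 0.212 to 3.80, holds changes of over 3-fold either way. Control S6, the highest, also had the highest sum of fibroblast markers, 477 CPM against 75.7 to 182 in the other 7 libraries, and the part of such cells was not tested. The sign of its difference changed when control S6 was left out, from −0.16 to 0.83 on the log2 scale.

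**Figure D5:**
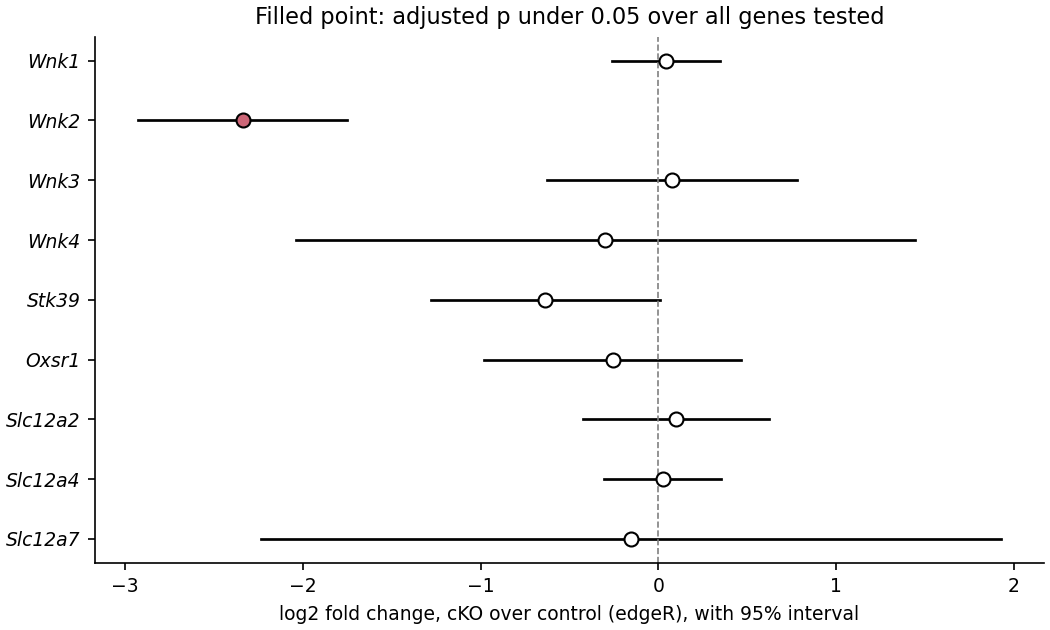
Log2 fold change of each gene, cKO over control, from edgeR, with its 95% interval (line). The point of Wnk2, at −2.34, is filled because its adjusted p over all genes was under 0.05, and the intervals of the other 8 genes include 0.

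A list of 28 further genes of the pathway covered the remaining SLC12 carriers, the ubiquitin ligase parts that degrade WNK kinases (Cul3, Klhl2, Klhl3 and Rbx1), the SPAK and OSR1 scaffold genes Cab39 and Cab39l, their binding receptors (Relt, Rell1 and Rell2), SGK kinases with the ligase Nedd4l, phosphatases and other targets. Of these, 24 passed the filter on low counts, and 0 had an adjusted p under 0.05 in edgeR's quasi-likelihood test. At an unadjusted p under 0.05 there was 1, Slc12a5, against 9.81% of all genes tested. DESeq2 called 1 gene of the list, where it called 2.49% of all genes it gave an adjusted p, and the authors' deposited table called 1, where it called 2.87%. Fold changes were above 0 for 10 of the 24 and below 0 for 14, with a median of −0.10, and 20 lay within 0.5 of 0 on the log2 scale.

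The 4 genes of the list with the highest mean CPM, which is not scaled to length, did not pass the threshold. The order differs per kilobase of exon, where control means were 12.9 for the phosphatase gene Ppp1cc and 3.48 for Nedd4l. Ppp1cb, a catalytic subunit of protein phosphatase PP1, was at 89.1 ± 11.5 CPM in controls and 105 ± 2.04 in cKO (SD, n = 4 per group), with an adjusted p of 0.663 in edgeR's test. Of the 24 genes of the list that were tested, 1, Ppp1cb, had groups that did not overlap, against 6.34% of all genes tested. Ppp3ca, a catalytic subunit of calcineurin, was at 92.4 ± 7.14 and 85.03 ± 11.7 CPM. Nedd4l, a ubiquitin ligase of ion transport proteins, was at 61.5 ± 12.6 and 65.4 ± 14.7 CPM, and Cul3, the scaffold of the ligase that degrades WNK kinases, at 58.1 ± 7.53 and 62.8 ± 16.5 CPM (SD, n = 4 per group). Slc12a1 and Kcnj1, carrier and channel genes of the kidney, had 0 reads in all 8 libraries.

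Slc12a5, the neuronal outward carrier KCC2, is named because of its value. Its values were 3.42, 8.81, 2.64 and 24.8 CPM for controls against 3.27, 2.77, 0.741 and 1.58 CPM for cKO. Control S7 stood above all other libraries. In edgeR's test the log2 fold change was −2.24 (standard error 0.71, adjusted p 0.275), and it was −1.24 without control S7. DESeq2 gave an adjusted p of 0.0413, the lowest of all alternatives, which reached 0.730 with the deposited FPKM and limma. Control S7 had the highest sum of neuronal markers too, 89.2 CPM against 34.7 to 78.4 in the other 7 libraries. The next highest sums were 78.4 CPM in cKO S5 and 77.4 in control S6. Slc12a5 was at 0.741 and 2.64 CPM there, the lowest value of each group. The part of neuronal RNA was not tested.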

How the data were processed

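The authors deposited raw counts per gene and library. HTSeq 0.6.1p1, TopHat2 2.0.11, Bowtie2 2.2.3, Cufflinks 2.2.1 with Cuffnorm, DESeq2 1.14.1 and GRCm38 are named in the submitters' processing notes. The 5 summary lines of each count table, 56.4% to 61.7% of its reads, name no gene and were left out. The authors also deposited FPKM values, and, per the file headers, a DESeq2 table of group means of scaled counts (a signal), shrunken log2 fold changes, their standard errors and Wald scores, and p-values. Over 11824 genes, 3 of 8 FPKM columns tracked the count table that shares their name, while all 8 tracked some library of their own group, so FPKM were used by group only.

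Groups came from the sample titles. Counts were fitted with edgeR 4.0.16 in R 4.3.3 (TMM, filterByExpr, quasi-likelihood, Benjamini-Hochberg over 14757 genes, adjusted p under 0.05), and the fit was tested on simulated data. CPM use TMM-scaled library sizes. The 95% intervals use the fit's standard error, taken from the F statistic. SDs measure the spread between 4 libraries a group. P-values judge the group difference against that spread, for which the fit also draws on the other genes. Exon lengths and overlaps came from GENCODE M21. Symbols were matched by identifier for 37607 identifiers. Figures were drawn with matplotlib 3.10.9. Alternatives were DESeq2 1.42.0, limma 3.58.1 (voom, or on log2 of FPKM plus 1 or 0.1 for genes with a mean FPKM of at least 0.1), RLE size factors, library totals, filters of 1 count in any or 10 counts in every library, Xist level as a covariate, and leaving out each library.

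The members and lists were chosen with earlier results of these data known. The text names the 9 members, Kcnj10 and the 5 genes most like Wnk2 by Pearson correlation. From the pathway list it names the 4 with the highest mean CPM and any called gene. Slc12a5, Slc12a1, Kcnj1 and Ppp1cc were named after their values were seen.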

Additional observations from a re-analysis of the deposited data

Results flagged for a closer look

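Of 26 sets of 4 libraries examined for a value far from the rest, 2 had one, where chance gives about 1 in 20, or 1.3. Oxsr1 was at 11.4 CPM in cKO S5, while the other cKO libraries lay at 24.9 to 26.9 CPM. The share of Wnk2 in the summed WNK level was 28.7% in control S2, above 20.8% to 21.6% in the other controls.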

How the results depend on the processing

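The fall of Wnk2 kept its direction in 17 of 17 alternatives and its call in 15, all those on counts (adjusted p of at most 0.038). With limma on deposited FPKM the log2 fold change was −1.65 (pseudocount 1, adjusted p 0.211) and −2.13 (pseudocount 0.1, adjusted p 0.186), and without each replicate it ran from −2.45 to −2.15. No other member was called in any alternative run. Signs of small differences changed. Slc12a7 had 0.51 with limma-voom, 0.30 with Xist as a covariate and 0.11 on FPKM plus 0.1, Wnk3 −0.074 with Xist, Oxsr1 0.12 and 0.14 and Slc12a4 −0.15 and −0.15 on FPKM plus 1 and 0.1, and Ppp3ca 0.14 and 0.15. The cause was not tested. Without 1 replicate, values ran from −0.0091 to 0.090 for Wnk1, −0.16 to 0.34 for Wnk3, −0.58 to 0.16 for Wnk4, −0.032 to 0.27 for Slc12a2, −0.013 to 0.083 for Slc12a4, −0.54 to 0.83 for Slc12a7, −0.075 to 0.21 for Nedd4l and −0.064 to 0.25 for Cul3. Wnk4 and Slc12a7 could not be fitted with 10 counts in every library.

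Over all genes, 47 were called, against 384 with DESeq2, 87 with 1 count in any library, 84 with 10 counts in every library and 28 with Xist, and 4 to 45 without 1 replicate, fewest without cKO S4 (30 without control S1, 14 without S2, 16 without S6, 24 without cKO S5 and 28 without S8). Of the pathway list DESeq2 called 1. Library totals gave 48 higher and 14 lower, against 30 and 17, and moved the median log2 fold change of all genes from −0.017 to 0.091. Control levels by deposited FPKM, another scale, were 63.9 for Wnk1, 7.18 for Wnk2, 5.54 for Wnk3, 1.94 for Wnk4, 28.4 for Stk39, 8.94 for Oxsr1, 8.76 for Slc12a2, 42.0 for Slc12a4 and 0.436 for Slc12a7. Shares by FPKM in controls and cKO were 81.5% and 90.5% for Wnk1, 9.16% and 1.92% for Wnk2, 6.77% and 6.50% for Wnk3, and 2.57% in controls for Wnk4. Without 1 control replicate, levels per length ran from 9.58 to 10.1 for Wnk1 and 3.16 to 3.88 for Wnk2. No paired analysis was possible because the groups share no replicate number.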
